A study of Drosophila melanogaster with 24 samples.

Results

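The cuticle protein genes of Drosophila melanogaster were followed in thoraces and heads of adult male flies aged 10 days. They were chosen by gene symbol, as the genes whose name begins with Cpr and a digit, Twdl, Ccp84, Lcp, Pcp or Edg, and by a mean of at least 0.5 CPM (read counts scaled to the size of the library) in any group. Of 15682 genes in the count files, 124 had such a name and 43 of these reached that level. They comprised 28 of 70 Cpr genes, 6 of 26 Twdl genes, 5 of 17 Lcp genes, 2 of 3 Edg genes, 1 of 7 Ccp84 genes and the single Pcp gene. The members nearest above the limit were TwdlE at 0.518 CPM, TwdlW at 0.542 CPM, Lcp65Ac at 0.552 CPM and Ccp84Ab at 0.555 CPM in their highest group. The nearest below it were Lcp2 at 0.493 CPM, Cpr76Bb at 0.473 CPM, Cpr78E at 0.431 CPM and TwdlBeta at 0.411 CPM. Of the 81 genes left out, 12 had no read in any library.

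The study asked how proteasome stress in skeletal muscle bears on ageing of the retina and brain. Every fly carried the Mhc driver, a myosin heavy chain promoter active in muscle. In thoraces it drove RNAi against ProsB1 or ProsB5, which encode catalytic subunits of the proteasome, against Ter94, the fly p97 ATPase that hands ubiquitinated proteins to the proteasome, or against CG6272, a bZIP transcription factor. The thorax controls carried RNAi against white, an eye pigment transporter gene, or against GFP, which is not a fly gene. In heads, flies in which Mhc drove Amyrel, a gene related to amylase, were set against an isogenic control with the driver and no transgene. Each of the 8 groups had 3 libraries, and the labels call them biological replicates without saying which flies or cultures they came from. The labels describe the thoraces as mostly skeletal muscle and the heads as enriched for brains and retinas.

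Insect cuticle is a layered material of chitin and protein, secreted by the epidermis, the tracheal lining, the fore- and hindgut and, over the eye, by cells that build the corneal lens. Most Cpr, Lcp, Ccp84 and Pcp proteins carry the Rebers and Riddiford consensus, a chitin-binding region. Tweedle (Twdl) proteins are a separate cuticular family, and altered TwdlD protein changes the shape of the larval body. Many cuticle genes are used at a given moult or stage, and the Lcp and Edg symbols record genes first described in larvae or as ecdysone-dependent, so that a name is no guide to where a gene is read in the adult.

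The thorax libraries held 28870166 to 79158181 reads in genes and the head libraries 47540753 to 75689088. The gene under manipulation was at 43.8 ± 3.07 CPM in ProsB1 RNAi thoraces against 83.2 ± 5.08 CPM in control thoraces for Prosbeta1 (SD, n = 3 and 6), with log2 changes of -0.93 for Prosbeta1, -1.05 for Prosbeta5, -0.61 for TER94 and -0.94 for CG6272. Amyrel was at 6.41 CPM in Amyrel heads and 0.0841 CPM in control heads. Muscle markers summed to at least 17926 CPM in every thorax library and photoreceptor markers to at least 61828 CPM in every head library. Of the control thoraces, 3 (white replicate 1 and GFP replicates 2 and 3) held over 100 CPM of ninaE, the main rhodopsin of the eye. Acp36DE, an accessory gland product, was above 5 CPM in GFP replicate 1, white replicates 1 and 2 and ProsB5 replicate 1. Ter94 replicates 2 and 3 were much more alike than other replicates: their chi-square per degree of freedom over 9984 genes was 1.81, against 12.5 to 303 in the other replicate pairs. This pair may be technical repeats, which was not tested, and n = 3 would then overstate the Ter94 group.

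The 43 genes lay on chromosome arms 3L (18 genes), 2R (12), 3R (10), 2L (2) and X (1), and 27 of them had another cuticle gene of these names as the next coding gene. Most reads came from few of them. Cpr65Au, a Rebers and Riddiford protein gene, held 30.7 to 44.3% of all reads of the 43 genes in thoraces and 26.4 to 39.0% in heads. Corrected for exon length, Cpr65Au stood at 685 CPM per kb in control thoraces, followed by Cpr67B at 101, Cpr62Bb at 68.3, Cpr49Ae at 65.2, Cpr66D at 44.8 and Cpr49Ab at 37.9 CPM per kb. In control heads the order was Cpr65Au at 495, Cpr67B at 127, Cpr72Ec at 64.4, Cpr49Ae at 46.0, Cpr47Ee at 33.9 and Cpr11B at 25.4 CPM per kb. Summed over its members, the Cpr family reached 726 CPM in control heads and 861 CPM in control thoraces, and the Twdl family 10.2 and 15.7 CPM in the same order. Lcp genes summed to 3.36 CPM in control heads and 5.72 CPM in control thoraces. The single expressed Ccp84 gene, Ccp84Ab, was at 0.0103 CPM in control heads and 0.0848 CPM in control thoraces.

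**Figure D1:**
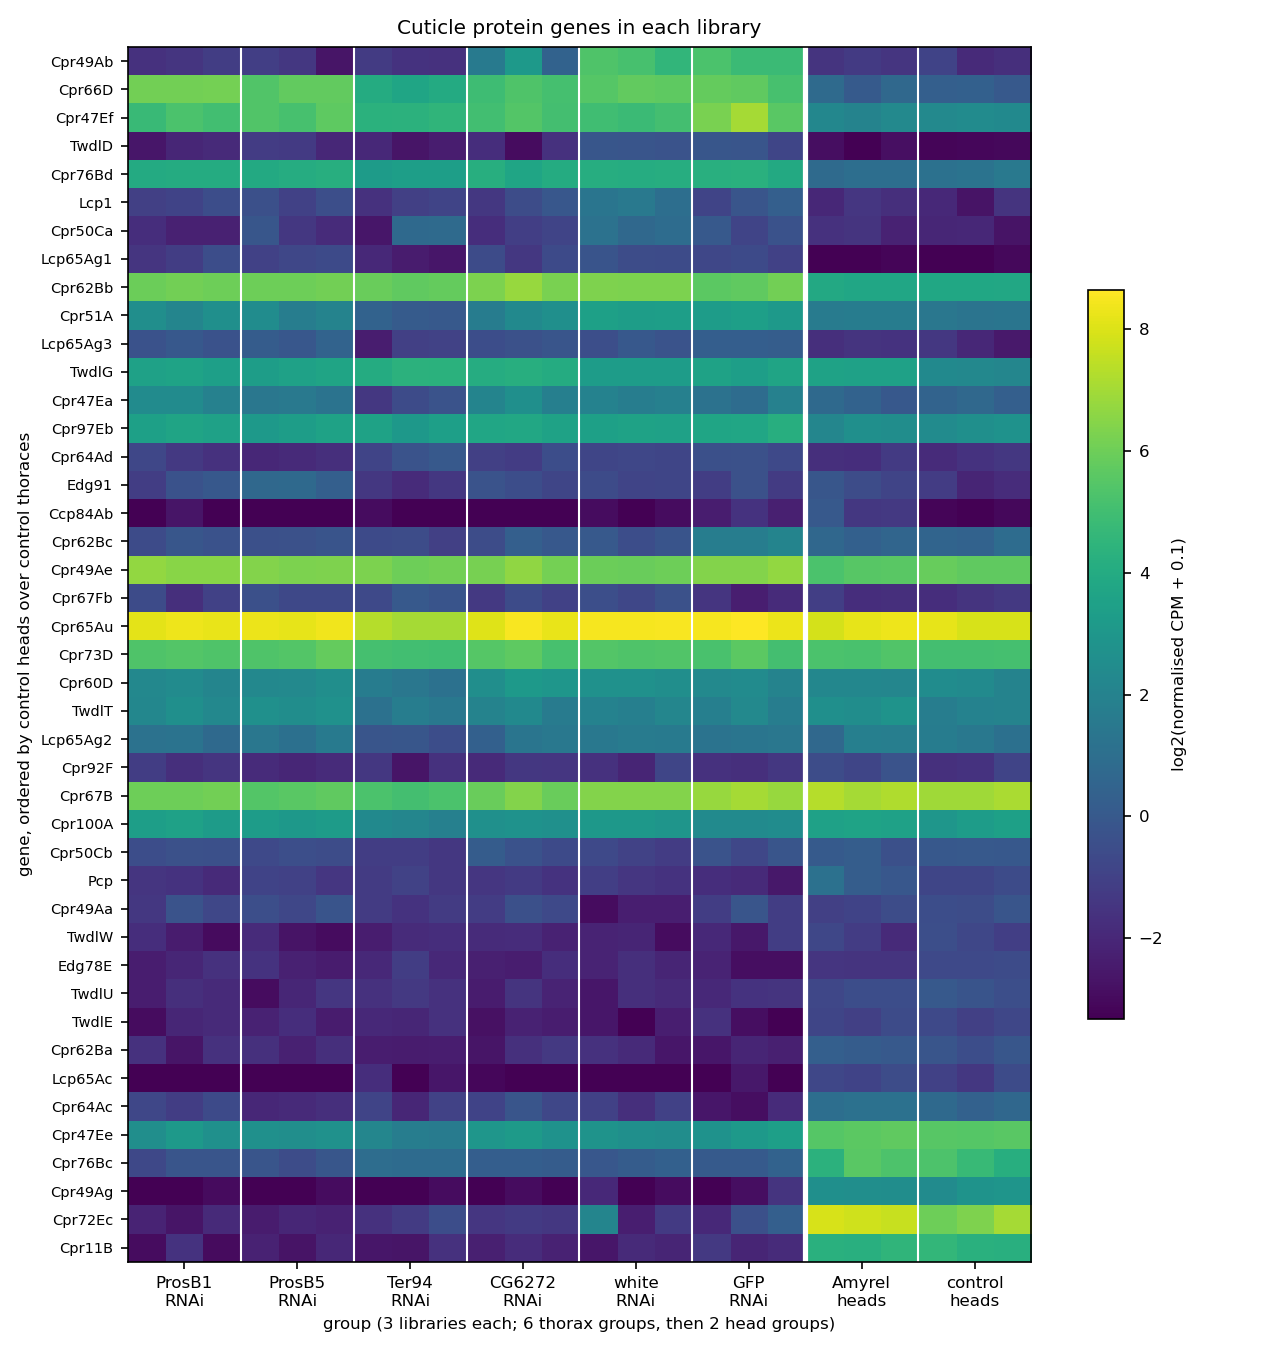
Heat map of the 43 cuticle protein genes (rows, ordered by control heads over control thoraces) in 24 libraries (columns, 3 per group), coloured by log2(normalised CPM + 0.1). Cpr65Au is among the brightest rows in every library, Cpr49Ab is brightest in the control thoraces, and genes such as Cpr11B are bright in the 6 head libraries.

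Some of the most abundant cuticle genes were shared between heads and thoraces, and others differed widely in level. Of 15 members at 5 CPM or more in control thoraces and 13 in control heads, 9 were common to both. Between control heads and control thoraces, 36 of 41 tested members differed, 17 higher and 19 lower in heads (edgeR's quasi-likelihood test, Benjamini-Hochberg adjusted p under 0.05 over 11029 genes). Among all genes tested 80.1% differed, 40.1% higher and 40.0% lower, so the share among the members was near the background. Of the 41 tested members, 31 were called with libraries that did not overlap, where 71.6% of all genes tested were. Of the 17, 9 reached 0.5 CPM only in head groups, and of the 19, 7 only in thorax groups, so that the rule itself placed them on that side. Of the other 24 tested members, 8 were higher and 12 lower. Ccp84Ab and Cpr92F had too few reads to be tested.

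Cpr11B was high in heads and low in thoraces. It stood at 24.1, 19.5 and 18.8 CPM in control heads, against 0.0289 to 0.292 CPM over all thoraces, a log2 difference of 7.02 in control heads over control thoraces, given as a description because it entered only through head groups. Cpr72Ec, whose protein is known from the corneal lens, averaged 93.2 ± 35.2 CPM in control heads (n = 3) and 1.11 ± 1.62 CPM in control thoraces (n = 6), a log2 change of 6.53. The thorax values of Cpr72Ec were highest in the 3 control libraries with over 100 CPM of ninaE, with 4.33 CPM in white replicate 1, 1.14 CPM in GFP replicate 3 and 0.648 CPM in GFP replicate 2. The other control thoraces held 0.102 to 0.304 CPM, and the part of head tissue in these values was not tested.

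Cpr49Ag, which also entered only through head groups, was at 6.63 CPM in control heads and 0.0801 CPM in control thoraces. Cpr76Bc averaged 28.2 ± 11 CPM in control heads and 1.04 ± 0.161 CPM in control thoraces, with a log2 change of 4.78. Cpr47Ee averaged 46.9 ± 1.67 CPM in control heads and 7.52 ± 1.91 CPM in control thoraces, with a log2 change of 2.67. All of these encode Rebers and Riddiford proteins. The 2 corneal lens genes outside the symbol rule, Crys (named Cry in the files) and retinin, summed to 335 to 388 CPM in control heads and to 0.375 to 14.7 CPM in control thoraces. Nearly all of the head sum was retinin, at 332 to 385 CPM, with Crys at 2.39 to 3.39 CPM. Cpr66D, also on the corneal lens list used here, went the other way, at 1.07 CPM in control heads and 49.4 CPM in control thoraces. Of the other lists, 4 of 18 chitin synthesis genes were higher and 6 lower in heads, 4 of 17 chitinases and growth factors higher and 9 lower, 7 of 16 sclerotisation genes higher and 6 lower, 11 of 20 regulators higher and 5 lower, and 7 of 11 structural genes outside the symbol rule higher and 2 lower.

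The thorax genes included Cpr49Ab, which reached 0.5 CPM only in thorax groups, at 0.422, 0.167 and 0.208 CPM in control heads and 23.1 to 40.9 CPM in control thoraces, and Cpr66D, at 1.07 ± 0.138 and 49.4 ± 7.94 CPM in the same order. Their log2 changes were -6.84 for Cpr49Ab and -5.50 for Cpr66D. Cpr47Ef (-3.33), Cpr76Bd (-2.87), Cpr62Bb (-2.22), Cpr51A (-2.04) and TwdlG (-1.16) were lower in heads too. Cpr65Au and Cpr67B, the members with the highest levels per kb in both tissues, differed little. Cpr65Au averaged 261 ± 29.7 CPM in control heads and 360 ± 27.8 CPM in control thoraces (log2 change -0.46, edgeR adjusted p = 0.00109), and Cpr67B averaged 128 CPM in control heads and 102 CPM in control thoraces (log2 change 0.35). Lcp65Ag2 and TwdlT were not called, with log2 changes of -0.01 ± 0.14 and -0.06 ± 0.14 (SE). Heads and thoraces come from fly stocks that carry different transgenes, so the tissue and the stock cannot be told apart here. In bulk tissue, fewer cells of a type and less RNA per cell cannot be told apart either, here or in the comparisons that follow.

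**Figure D2:**
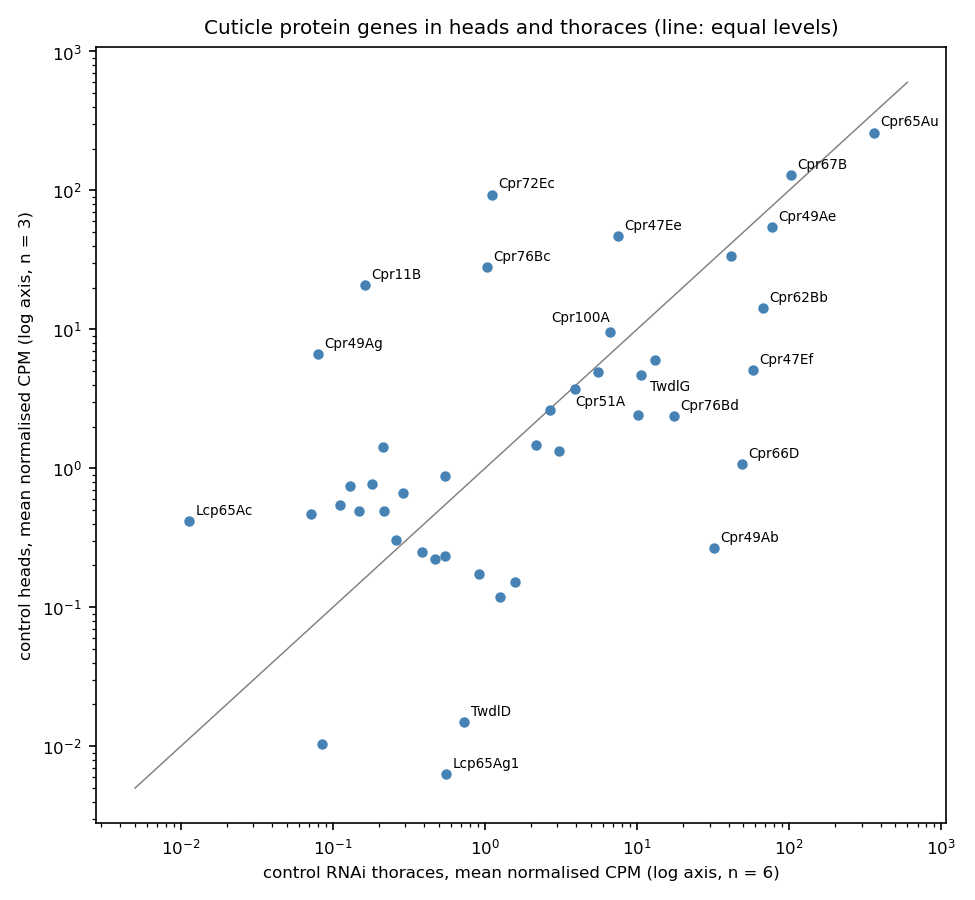
Mean normalised CPM of each cuticle protein gene in control heads (vertical log axis, n = 3) and in control RNAi thoraces (horizontal log axis, n = 6), with the line of equal levels. Cpr65Au, Cpr67B and Cpr49Ae lie close to the line, Cpr72Ec, Cpr11B and Cpr49Ag far above it, and Cpr49Ab and Cpr66D far below it.

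Knockdown of Ter94 in muscle went with lower levels of most thoracic cuticle genes. Of 33 tested members, 23 fell and 3 rose against the 6 control RNAi thoraces, where 28.4% of all 11262 genes tested fell and 29.7% rose, 58.1% in all. Of the 33 tested members, 21 were called with groups that did not overlap, where 45.2% of all genes tested were. Among called genes this was 21 of 26 members and 5091 of 6544 genes. Lcp65Ag1 and TwdlD reached 0.5 CPM only in control groups, so their falls rest on how they were chosen; of the other 31 tested members 21 fell and 3 rose. The median log2 change was -0.91 over the 33 members and 0.00 over all genes tested. The reads of all 43 members summed to 439 ± 27.6 CPM in Ter94 RNAi thoraces (n = 3) and 883 ± 75.0 CPM in control thoraces (n = 6), and without Cpr65Au to 298 ± 13.4 and 523 ± 59.4 CPM in the same order. Without Ter94 replicate 2 or without replicate 3, the pair that was much alike, 21 members were called, 3 higher and 18 lower. The other 10 members (Ccp84Ab, Cpr11B, Cpr49Ag, Cpr62Ba, Cpr92F, Edg78E, Lcp65Ac, TwdlE, TwdlU and TwdlW) had too few reads in thoraces to be tested, so the counts are not over all members. Without the controls high in ninaE 19 members were called.

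Cpr65Au stood at 159, 131 and 133 CPM in Ter94 RNAi thoraces, against 357, 360 and 374 CPM with white RNAi and 354, 401 and 316 CPM with GFP RNAi. Every Ter94 library was below every control, and the log2 change was -1.36 ± 0.09 (SE, edgeR adjusted p = 8.26e-08). Cpr65Au overlaps an antisense RNA gene, and the strand setting of the counting is not given in the sources used here, so reads of both genes cannot be told apart. Cpr67B stood at 38.1, 34.1 and 38.6 CPM in Ter94 RNAi thoraces and at 85.8 to 131 CPM in control thoraces, with a log2 change of -1.46 ± 0.07 and no overlap.

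Cpr66D was at 16.5, 12.9 and 15.8 CPM in Ter94 RNAi thoraces and at 35.6 to 57.2 CPM in control thoraces. Its log2 change was -1.72 ± 0.15 (SE, edgeR adjusted p = 1.38e-06). Cpr51A was at 1.26, 0.974 and 0.926 CPM in Ter94 RNAi thoraces and at 8.70 to 11.2 CPM in control thoraces, with a log2 change of -3.27 ± 0.20. Cpr51A overlaps CG30197 on the other strand, a gene chosen here after its values were seen, which averaged 103 CPM in Ter94 RNAi thoraces, 184 CPM with white RNAi and 183 CPM with GFP RNAi, a log2 change of -0.84. Reads of Cpr51A and CG30197 cannot be told apart without the strand setting.

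By cytological band, the 3 tested genes of 47E fell, with log2 changes of -2.52 for Cpr47Ea, -1.29 for Cpr47Ef and -1.06 for Cpr47Ee. Cpr47Ef averaged 21.2 ± 1.27 CPM in Ter94 RNAi thoraces, 31.3 ± 2.25 CPM with white RNAi and 85.2 ± 42.9 CPM with GFP RNAi, so that its control level depended on the control line. The 4 tested genes of 65A fell as well. In addition to Cpr65Au these were Lcp65Ag1 (-2.36), Lcp65Ag2 (-1.83) and Lcp65Ag3 (-1.59), near-identical copies whose reads could be shared between them and whose separate values are uncertain. With Lcp1, first known from the larval cuticle (log2 change -1.95), all 4 tested Lcp genes fell, at a median of -1.89, of which Lcp65Ag1 entered only through the controls. Lcp1 averaged 0.352 CPM in Ter94 RNAi thoraces and 1.57 CPM in control thoraces, so these are low levels.

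Not all members moved down. TwdlG, a Tweedle gene, rose to 16.2, 20.3 and 20.0 CPM in Ter94 RNAi thoraces, against 9.62, 9.82 and 9.80 CPM with white RNAi and 11.8, 10.4 and 12.8 CPM with GFP RNAi. The groups did not overlap and the log2 change was 0.82 ± 0.08 (SE, edgeR adjusted p = 4.47e-06). Cpr76Bc rose to 1.75 ± 0.077 CPM in Ter94 RNAi thoraces, against 1.04 ± 0.161 CPM in control thoraces. Cpr67Fb, at 0.732 CPM in Ter94 RNAi thoraces and 0.386 CPM in control thoraces, rose by 1.15 on the log2 scale with overlapping libraries (edgeR adjusted p = 0.0116), and the change was 0.96 (edgeR adjusted p = 0.0687) without Ter94 replicate 2 and 0.30 (edgeR adjusted p = 0.538) with white RNAi alone as control. TwdlT, another Tweedle gene, fell by 0.55 on the log2 scale. Cpr49Ae, at 65.2 to 79.1 CPM in Ter94 RNAi thoraces and 60.8 to 103 CPM in control thoraces, was not called (log2 change -0.10 ± 0.08, SE), while Cpr62Bb fell by 0.25 on the log2 scale.

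Other genes that build cuticle were counted by list in the same comparison. Of 16 tested sclerotisation and pigmentation genes, whose products harden and darken cuticle, 14 fell and none rose, at a median log2 change of -0.80. They included ple, the tyrosine hydroxylase that starts catecholamine synthesis, at 64.3 ± 11.5 CPM in Ter94 RNAi thoraces and 199 ± 23.0 CPM in control thoraces (log2 change -1.63), amd (-2.16) and laccase2, an oxidase that crosslinks cuticle proteins (-0.66). Of 18 genes of chitin synthesis, deacetylation and organisation, 10 fell and 1 rose, at a median of -0.41, led by obst-E (-1.54), verm, a chitin deacetylase (-1.04), and Gfat1, which feeds sugar into the pathway to chitin (-0.68). Of 18 chitinases and imaginal disc growth factors, 12 fell and 2 rose, at a median of -0.67, with Hexo2 at -1.40 and Idgf4 at -0.45.

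Of 20 ecdysone-responsive and epidermal regulators 5 fell and 4 rose, at a median of -0.03, with vvl at -0.72, grh at -0.40 and Eip78C at 0.43. Among 10 cuticle structural genes outside the symbol rule 4 fell and 1 rose. Markers of trachea and epidermis summed to 312 to 354 CPM in Ter94 RNAi thoraces and 522 to 570 CPM in control thoraces. Of these 10 markers 7 fell and none rose, and all but btl and trh are also on the lists above, so the counts are not separate. Of the sums, ple alone was 51.1 to 71.5 CPM in Ter94 RNAi thoraces and 175 to 232 CPM in control thoraces. Gut markers summed to 344 to 1565 CPM in Ter94 RNAi thoraces and 5660 to 6450 CPM in control thoraces. Of these 8 markers 6 fell and 2 rose, among them Jon65Aii, at 6.55 to 10.7 CPM against 0 to 0.908 CPM in the same order. Haemocyte markers summed to 423 to 502 CPM and 585 to 696 CPM in that order, with 6 of 8 lower and 1 higher. Muscle markers summed to 24710 to 25160 CPM in Ter94 RNAi thoraces, within the 21798 to 29091 CPM of control thoraces, yet of these 10 markers 2 rose and 2 fell. The muscle gene fln was at 19.1 to 22.9 CPM in Ter94 RNAi thoraces and 293 to 555 CPM in control thoraces. TpnC4 was at 82.5 to 92.3 and 480 to 1134 CPM in the same order, and Act57B at 1765 to 1826 and 896 to 1040 CPM. The part of these tissues in the lower cuticle gene levels was not tested.

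Knockdown of the proteasome subunits changed fewer members. Against the same 6 control thoraces, ProsB1 RNAi changed 12 of 33 tested members, 5 higher and 7 lower, where 11.6% of all genes rose and 9.73% fell, 21.3% in all. ProsB5 RNAi changed 12 of 33, 4 higher and 8 lower, where 17.3% rose and 13.8% fell, 31.0% in all. Lcp65Ag1 and TwdlD reached 0.5 CPM only in control groups, so the fall of TwdlD in each rests on how it was chosen. Of the other 31 tested members, 5 rose and 6 fell with ProsB1 RNAi, and 4 rose and 7 fell with ProsB5 RNAi. Without the libraries high in Acp36DE, which include ProsB5 replicate 1, the ProsB5 count was 5, all lower, and without the controls high in ninaE the ProsB1 count was 8. The median log2 change of the members was -0.15 under ProsB1 RNAi and -0.10 under ProsB5 RNAi, against medians over all genes of -0.00 and 0.01. The members summed to 761 ± 26.4 CPM with ProsB1 RNAi and 737 ± 48.6 CPM with ProsB5 RNAi (n = 3 each).

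Cpr67B stood at 65.2, 63.2 and 69.4 CPM with ProsB1 RNAi and at 44.1, 48.0 and 53.5 CPM with ProsB5 RNAi, against 85.8, 86.0 and 87.4 CPM with white RNAi and 112, 131 and 111 CPM with GFP RNAi. All knockdown libraries lay below all controls. The log2 changes were -0.62 ± 0.07 for ProsB1 (edgeR adjusted p = 6.1e-05) and -1.05 ± 0.07 for ProsB5 (edgeR adjusted p = 1.52e-06). Cpr67B was also the only member called between ProsB5 and ProsB1 RNAi, of 33 tested, where 3.41% of all genes were higher and 2.56% lower, 5.97% in all. It was lower in ProsB5, by 0.44 on the log2 scale (edgeR adjusted p = 0.00685). Without the libraries high in Acp36DE 0 members were called. In the full set, 8 of the 33 tested members differed between these knockdowns at an unadjusted p under 0.05, where 19.2% of all genes tested did.

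Cpr51A averaged 5.41 ± 1.04 CPM with ProsB1 RNAi and 4.28 ± 1.18 CPM with ProsB5 RNAi, against 10.1 ± 0.88 CPM in control thoraces, with log2 changes of -0.90 and -1.23. CG30197 on the opposite strand changed by -0.58 under ProsB1 RNAi and by -0.42 under ProsB5 RNAi. Lcp1 fell in both, by 1.51 and 1.26 on the log2 scale, with libraries that overlap those of the controls. With GFP RNAi alone as control the Lcp1 changes were -0.72 for ProsB1 and -0.48 for ProsB5 (edgeR adjusted p = 0.184 and 0.361), and without the controls high in ninaE -1.09 and -0.85 (edgeR adjusted p = 0.0771 and 0.124). Without ProsB5 replicate 2 the Lcp1 change under ProsB5 RNAi was -1.08 (edgeR adjusted p = 0.0529), so that call also rests on this library. Cpr50Ca fell with ProsB1 RNAi (-2.97) and Cpr64Ad with ProsB5 RNAi (-1.58), both at low levels and both overlapping another gene on their strand. Cpr72Ec was called lower with ProsB5 RNAi, at 0.118 CPM against 1.11 ± 1.62 CPM in control thoraces (-3.06, edgeR adjusted p = 0.0483), with overlapping libraries and the high controls being those with ninaE.

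Members that rose with ProsB1 or ProsB5 RNAi did so by at most 1.65 on the log2 scale (Cpr49Aa with ProsB5 RNAi, at 0.34 and an edgeR adjusted p of 0.623 with GFP RNAi alone as control), and none of these was called between ProsB5 and ProsB1 RNAi. Cpr100A averaged 10.4 ± 1.15 CPM with ProsB1 RNAi and 9.15 ± 0.862 CPM with ProsB5 RNAi, against 6.65 ± 1.51 CPM in control thoraces, with log2 changes of 0.67 ± 0.10 and 0.49 ± 0.10. With white RNAi alone as control the ProsB5 change was 0.20 (edgeR adjusted p = 0.245). The controls themselves were split, with 8.27 and 8.22 CPM in white replicates 1 and 2 and 5.12 to 5.54 CPM in the GFP libraries. Edg91, named as ecdysone-dependent, stood at 1.57, 1.63 and 1.13 CPM with ProsB5 RNAi and averaged 0.472 ± 0.133 CPM in control thoraces, a log2 change of 1.61 ± 0.31 (SE, edgeR adjusted p = 0.00185). TwdlT averaged 6.18 ± 0.439 CPM with ProsB5 RNAi and 3.89 ± 0.63 CPM in control thoraces, a log2 change of 0.67. TwdlT overlaps RYa-R on the same strand, so its reads may in part be those of RYa-R.

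Under ProsB1 RNAi Cpr49Ae rose by 0.34 and Cpr66D by 0.48 on the log2 scale. With GFP RNAi alone as control the Cpr49Ae change was 0.06 (edgeR adjusted p = 0.665). Cpr66D, at 67.8, 69.6 and 70.0 CPM with ProsB1 RNAi and 35.6 to 57.2 CPM in control thoraces, was no longer called without white replicate 1 (log2 change 0.45, edgeR adjusted p = 0.0526) or without any of the ProsB1 libraries (0.47 to 0.49, edgeR adjusted p from 0.0701 to 0.076). Cpr49Aa and Cpr64Ac also rose, to 0.503 and 0.46 CPM with ProsB1 RNAi, against 0.289 and 0.213 CPM in control thoraces, log2 changes of 1.32 and 1.37. These changes are against the average of the white and GFP groups on the log scale, so they exceed the ratio of the mean levels. The Cpr64Ac call was lost without any of 8 libraries (GFP replicates 1 and 2, and every white and ProsB1 library), with log2 changes of 1.17 to 1.53, and with white RNAi alone as control, at 0.45 (edgeR adjusted p = 0.579). The Cpr49Aa call was lost without any of 5 (GFP replicates 1 and 3, white replicate 1 and ProsB1 replicates 2 and 3), with log2 changes of 0.95 to 1.33, and with GFP RNAi alone as control, at 0.02 (edgeR adjusted p = 0.987).

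Of the other cuticle-related genes, the sclerotisation, chitin synthesis and regulator lists had more genes lower than higher in both knockdowns. Sclerotisation genes gave 1 higher and 3 lower of 16 for ProsB1 and 2 higher and 8 lower for ProsB5. Chitin synthesis genes gave none higher and 4 lower of 18 for ProsB1 and 1 higher and 7 lower for ProsB5. Chitinases and growth factors gave none higher and 7 lower of 18 for ProsB1 and 6 higher and 5 lower for ProsB5. Cht7, a chitinase, fell by 1.09 and 1.23 on the log2 scale in ProsB1 and ProsB5 RNAi. Cht10 (Cht3 in the files), a chitinase, rose to 26.0 ± 5.97 CPM with ProsB5 RNAi, against 3.49 ± 1.30 CPM in control thoraces. Regulators gave none higher, with 5 lower of 20 for ProsB1 and 4 for ProsB5. Crys rose to 20.4 ± 13.1 CPM with ProsB1 RNAi and 15.3 CPM with ProsB5 RNAi, against 0.405 ± 0.692 CPM in control thoraces, and retinin was the only gene of the 10 outside the symbol rule that fell. In the 3 control thoraces with over 100 CPM of ninaE, retinin was at 5.49 to 14.5 CPM, and in the other controls at 0.292 to 0.307 CPM. The part of head tissue in its fall was not tested. Markers of trachea and epidermis summed to 508 to 583 CPM with ProsB1 RNAi, 452 to 475 CPM with ProsB5 RNAi and 522 to 570 CPM in control thoraces, while 6 of 8 gut markers rose in each knockdown. With ProsB5 RNAi 7 of 8 haemocyte markers rose, summing to 849 to 890 CPM, against 585 to 696 CPM in control thoraces. Of 8 tested fat body markers 5 rose, and that list summed to 11870 to 15210 CPM, against 7782 to 9598 CPM. With ProsB1 RNAi 2 of 8 haemocyte markers rose, and 2 of 8 fat body markers rose and 1 fell. The part of these tissues was not tested.

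Ter94 RNAi differed from the proteasome knockdowns directly. Against the 6 ProsB1 and ProsB5 libraries, 23 of 33 members were called, 19 lower and 4 higher in Ter94 RNAi, where 29.6% of all genes were lower and 27.4% higher, 57.1% in all. The median log2 change was -0.73 over the members and -0.01 over all genes. Cpr65Au averaged 141 ± 15.6 CPM with Ter94 RNAi and 309 ± 20.0 CPM with ProsB1 and ProsB5 RNAi together, a log2 change of -1.14 (edgeR adjusted p = 3.51e-07). Cpr66D averaged 15.1 ± 1.94 and 59.9 ± 11.3 CPM in the same order, a log2 change of -1.98, and Cpr51A changed by -2.20. TwdlG was higher in Ter94 RNAi, at 18.8 ± 2.28 CPM against 11.4 CPM, a log2 change of 0.72 (edgeR adjusted p = 1.43e-05). Cpr76Bc was higher by 1.28 on the log2 scale. Of the related lists, sclerotisation genes gave none higher and 12 lower of 16, chitin synthesis genes 2 higher and 11 lower of 18, chitinases and growth factors 1 higher and 13 lower of 18, and regulators 7 higher and 3 lower of 20.

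CG6272 RNAi changed 8 of 32 tested members, 2 higher and 6 lower, where 13.3% of 10784 genes rose and 9.53% fell, 22.8% in all. Without Lcp65Ag1 and TwdlD, which entered only through control groups, 2 rose and 5 fell of the other 30. The median log2 change was -0.07 over the members and 0.02 over all genes. The members summed to 767 ± 125 CPM (n = 3) and ranged from 682 to 910 CPM, so that replicate 2, the highest, lay within the control range. Replicate 2 stood apart in other genes too. Of the muscle markers, bt was at 1772 CPM there, against 4803 and 4830 CPM in replicates 1 and 3, and up at 2654 CPM, against 1886 and 1599 CPM. The chi-square per degree of freedom was 175 to 303 in the CG6272 pairs, the highest of any group. The titles of the CG6272 libraries have another form, so a batch and the knockdown cannot be told apart. TwdlG rose to 16.7, 18.1 and 16.6 CPM with CG6272 RNAi, above all 6 controls (9.62 to 12.8 CPM), with a log2 change of 0.69 ± 0.08 (SE, edgeR adjusted p = 0.00102). Cpr64Ac rose by 1.67 on the log2 scale at low levels, and the call was lost without any of 7 libraries, all but GFP replicate 3 and CG6272 replicate 3, with edgeR adjusted p up to 0.0947, and with white RNAi alone as control the change was 0.75 (edgeR adjusted p = 0.279).

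Of the genes that fell with CG6272 RNAi, Cpr51A averaged 4.77 ± 1.5 CPM against 10.1 ± 0.88 CPM in control thoraces (log2 change -1.08 ± 0.19). Cpr67B stood at 59.3, 85.1 and 61.0 CPM with CG6272 RNAi and at 85.8 to 131 CPM in control thoraces, a log2 change of -0.56 ± 0.13 (SE, edgeR adjusted p = 0.0178) that was -0.46 (edgeR adjusted p = 0.0582) without CG6272 replicate 1 and -0.33 (edgeR adjusted p = 0.138) with white RNAi alone as control. Cpr50Ca, which overlaps a non-coding RNA gene on its strand, fell by 1.73 on the log2 scale, and by 1.03 (edgeR adjusted p = 0.0908) with GFP RNAi alone as control. Chitin synthesis genes gave 1 higher and 5 lower of 18, chitinases and growth factors 4 higher and 8 lower of 17, sclerotisation genes 1 higher and 6 lower of 16, regulators none higher and 4 lower of 20 and the structural genes outside the symbol rule 2 higher and 1 lower of 9. Markers of trachea and epidermis summed to 398 to 480 CPM with CG6272 RNAi and 522 to 570 CPM in control thoraces. Of these 10 markers 4 fell and none rose, and all but btl and trh are also on the lists above. The lowest of these sums, 398 CPM, was that of CG6272 replicate 2. Haemocyte markers summed to 508 to 556 CPM with CG6272 RNAi and 585 to 696 CPM in control thoraces, with 4 of 8 lower, and 4 of 8 gut markers rose; the part of these tissues was not tested. Without the controls high in Acp36DE no member was called by edgeR with CG6272 RNAi, and without those high in ninaE 1 was; the Acp36DE fit holds 3 fewer libraries and called 341 genes in all.

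**Figure D3:**
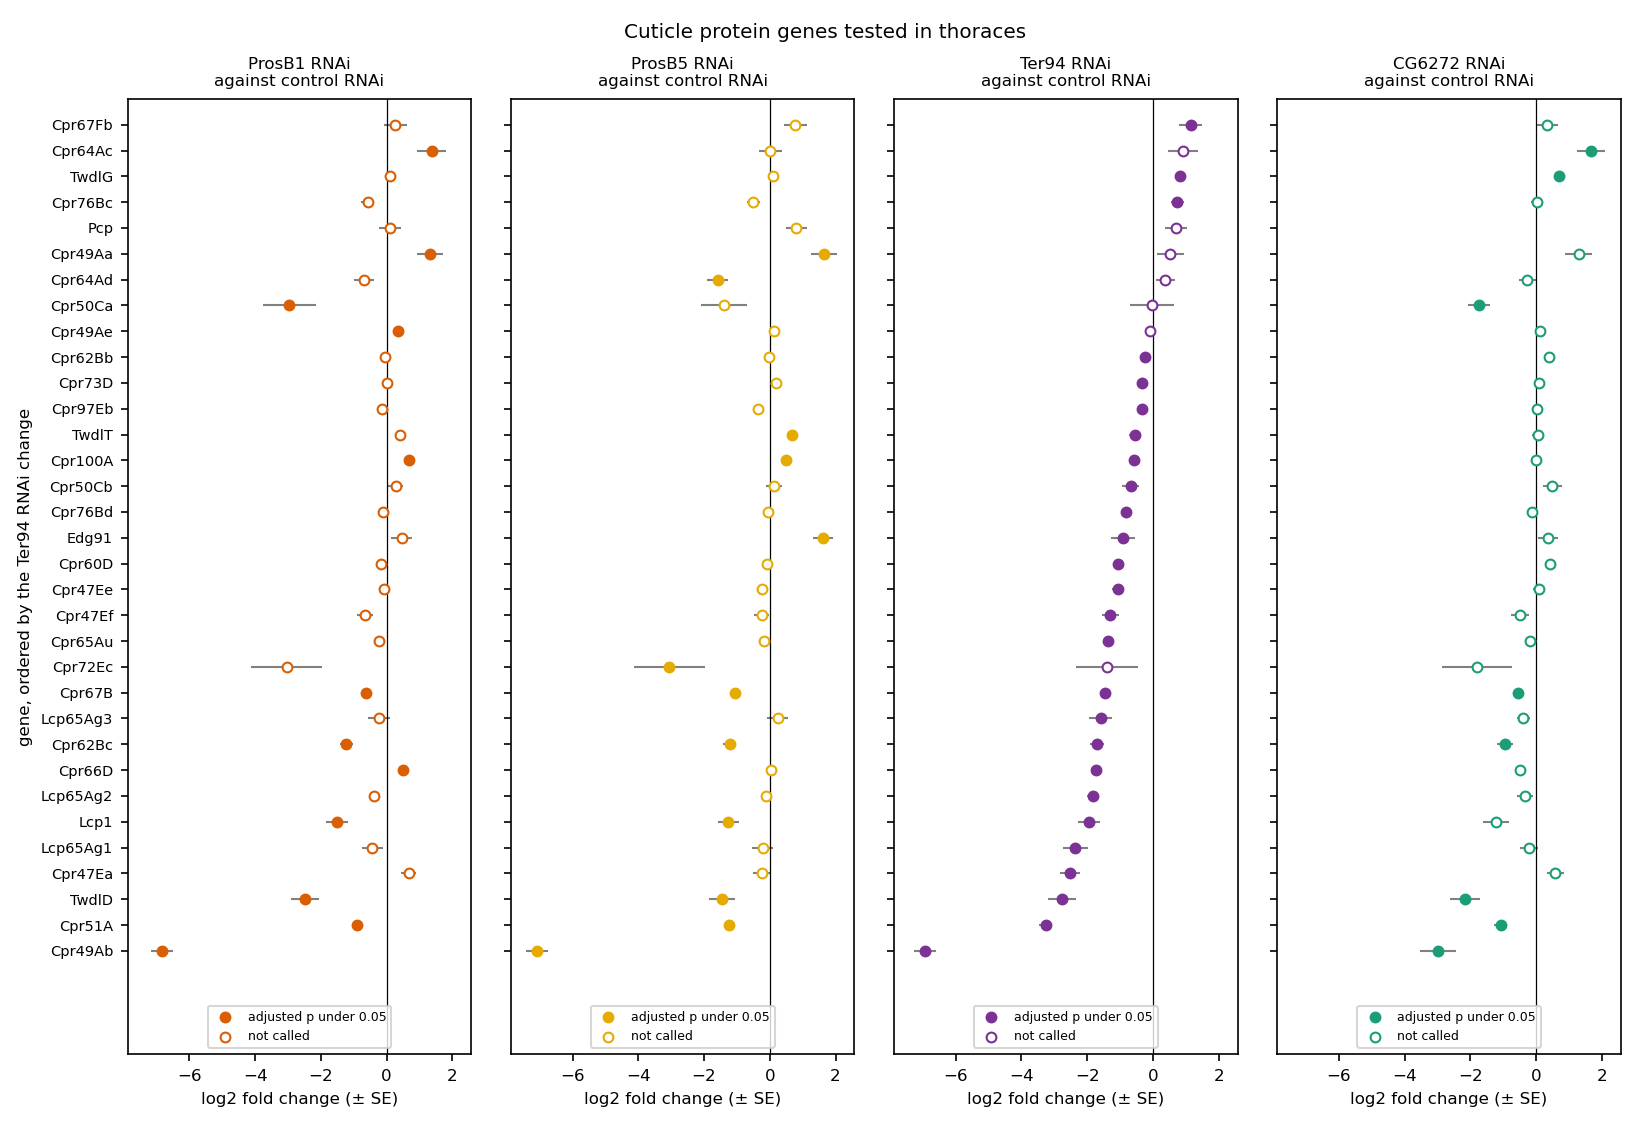
Log2 fold change (horizontal axis, bars SE) of the 33 cuticle protein genes tested in thoraces, for each knockdown over control RNAi, with filled points at an edgeR adjusted p under 0.05. Most points lie below 0 under Ter94 RNAi, at a median of -0.91, and Cpr49Ab is the lowest gene in every panel; Pcp was not tested with CG6272 RNAi.

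Cpr49Ab had the largest change of the members in each knockdown comparison. It stood at 0.224, 0.263 and 0.346 CPM with ProsB1 RNAi, at 0.363, 0.285 and 0.0597 CPM with ProsB5 RNAi and at 0.322, 0.236 and 0.224 CPM with Ter94 RNAi. With CG6272 RNAi it stood at 2.95, 8.54 and 1.26 CPM. The controls held 40.9, 35.2 and 23.1 CPM with white RNAi and 38.4, 28.1 and 28.2 CPM with GFP RNAi. All 12 knockdown libraries lay below all 6 controls, and the CG6272 libraries lay above the other knockdowns. The log2 changes were -6.83 ± 0.33 for ProsB1, -7.07 ± 0.33 for ProsB5, -6.94 ± 0.33 for Ter94 and -2.98 ± 0.56 for CG6272 (SE), with edgeR adjusted p of 1.22e-07, 6.05e-08, 7.47e-09 and 0.00818. Among the 11262 genes ordered by log2 change, Cpr49Ab was 4 from the lowest with ProsB5 RNAi and 11 from the lowest with Ter94 RNAi. In heads Cpr49Ab was at 0.246, 0.316 and 0.262 CPM with Amyrel and 0.422, 0.167 and 0.208 CPM in controls.

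The next coding gene, CG13155, was looked at after these values were seen. It had 0, 0 and 0.0866 CPM with ProsB1 RNAi, 0.0303, 0.0285 and 0.0299 CPM with ProsB5 RNAi, 0.0644, 0 and 0.0958 CPM with Ter94 RNAi and 0.256, 0.588 and 0.0785 CPM with CG6272 RNAi. Its control levels were 7.32, 7.13 and 4.19 CPM with white RNAi and 10.4, 6.10 and 6.68 CPM with GFP RNAi. So CG13155 was below all controls in the same 12 libraries, and its fall was called in each of the 4 knockdowns (edgeR adjusted p from 8.43e-07 to 0.00104). CG8501, the coding gene after it, ranged from 1.13 to 2.82 CPM over all libraries. The 4 knockdowns share their 6 control libraries, so a value peculiar to the controls would appear in each comparison.

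**Figure D4:**
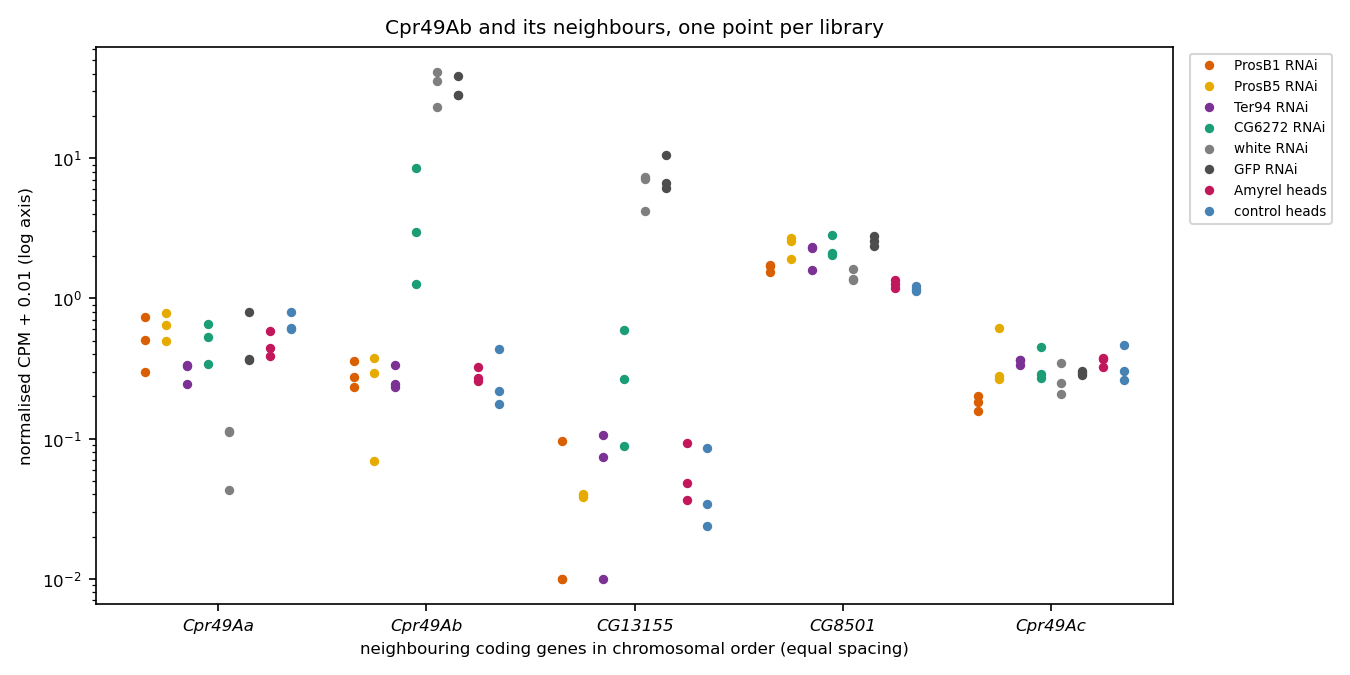
Normalised CPM plus 0.01 (vertical log axis) of Cpr49Ab and 4 neighbouring coding genes in chromosomal order, with 1 point per library coloured by group. Cpr49Ab and CG13155 are high in the white and GFP RNAi thoraces and low in knockdown thoraces and in heads, while CG8501 stays between 1.13 and 2.82 CPM.

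In all, 5 of the 33 members tested in thoraces were called lower in each of the 4 knockdown comparisons, where 2.97% of all genes tested were. Beside Cpr49Ab these were Cpr51A, Cpr67B, Cpr62Bc and TwdlD. TwdlD averaged 0.128 CPM with ProsB1 RNAi, 0.265 CPM with ProsB5 RNAi, 0.105 CPM with Ter94 RNAi and 0.15 CPM with CG6272 RNAi, against 0.734 CPM in control thoraces, with no library of any knockdown at a control's level. It reached 0.5 CPM only in control groups, so its lower values are a description of how it was chosen. Across the comparisons 32 of the 33 tested members were called in at least 1 knockdown, where 72.8% of all genes tested were. Of the same 33 members, 4 were higher in 1 knockdown and lower in another, where 9.83% of all genes tested were.

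Cpr62Bc shows how the choice of control bears on these calls. It stood at 0.919, 0.614 and 0.777 CPM with white RNAi and at 3.24, 3.31 and 4.16 CPM with GFP RNAi. The knockdowns lay near white, with 0.576 to 0.818 CPM for ProsB1, 0.666 to 0.776 CPM for ProsB5, 0.383 to 0.590 CPM for Ter94 and 0.588 to 1.11 CPM for CG6272 RNAi. With white RNAi alone as control, the ProsB1 and ProsB5 changes in Cpr62Bc were -0.13 and -0.12 (edgeR adjusted p = 0.76 and 0.778), and the CG6272 change turned to 0.15. The CG6272 call was also lost without any of 5 libraries (GFP replicates 2 and 3, white replicates 1 and 3, CG6272 replicate 1), at -0.73 to -0.97. The neighbouring coding gene CG13936, chosen after its values were seen, was split likewise, at 0.985, 0.852 and 0.845 CPM with white RNAi and 3.95, 4.26 and 3.02 CPM with GFP RNAi. The pigment gene y, called yellow, was at 0.0904 CPM with white RNAi and 25.2 ± 3.76 CPM with GFP RNAi, and at about the white level in all knockdowns, with means of 0.0641 to 0.101 CPM. The part of the fly stock in the Cpr62Bc calls was not tested.

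Between white and GFP RNAi, the study's controls, 9 of 33 members differed, 4 higher and 5 lower with white RNAi, where 6.79% of all genes were higher and 6.09% lower, 12.9% in all. The median log2 change was 0.07 over the members and -0.00 over all genes. The libraries of the 9 did not overlap either, where 12.7% of all genes were both called and without overlap. Without the controls high in Acp36DE 1 member was called, and without those high in ninaE 4. Cpr62Bc fell by 2.20 on the log2 scale (edgeR adjusted p = 6.01e-05). Cpr47Ef averaged 31.3 ± 2.25 CPM with white RNAi and 85.2 ± 42.9 CPM with GFP RNAi (-1.44), where GFP replicate 2 reached 132 CPM and GFP replicate 3 was at 47.3 CPM. Cpr49Ae (-0.56) and Cpr67B (-0.45) were lower and Cpr62Bb (0.47) and Cpr100A (0.59) higher with white RNAi.

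The remaining calls between the controls were of genes at low levels. Cpr49Aa was lower with white RNAi, at 0.0788 CPM against 0.499 CPM with GFP RNAi. Lcp1 was higher, at 2.35 CPM with white RNAi and 0.791 CPM with GFP RNAi, and was no longer called without white replicate 2 (log2 change 1.43, edgeR adjusted p = 0.0568). Cpr67Fb was higher too, at 0.592 and 0.18 CPM in the same order, and its call was lost without GFP replicate 2 or 3 or white replicate 1 or 3, with log2 changes of 1.41 to 1.67.

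**Figure D5:**
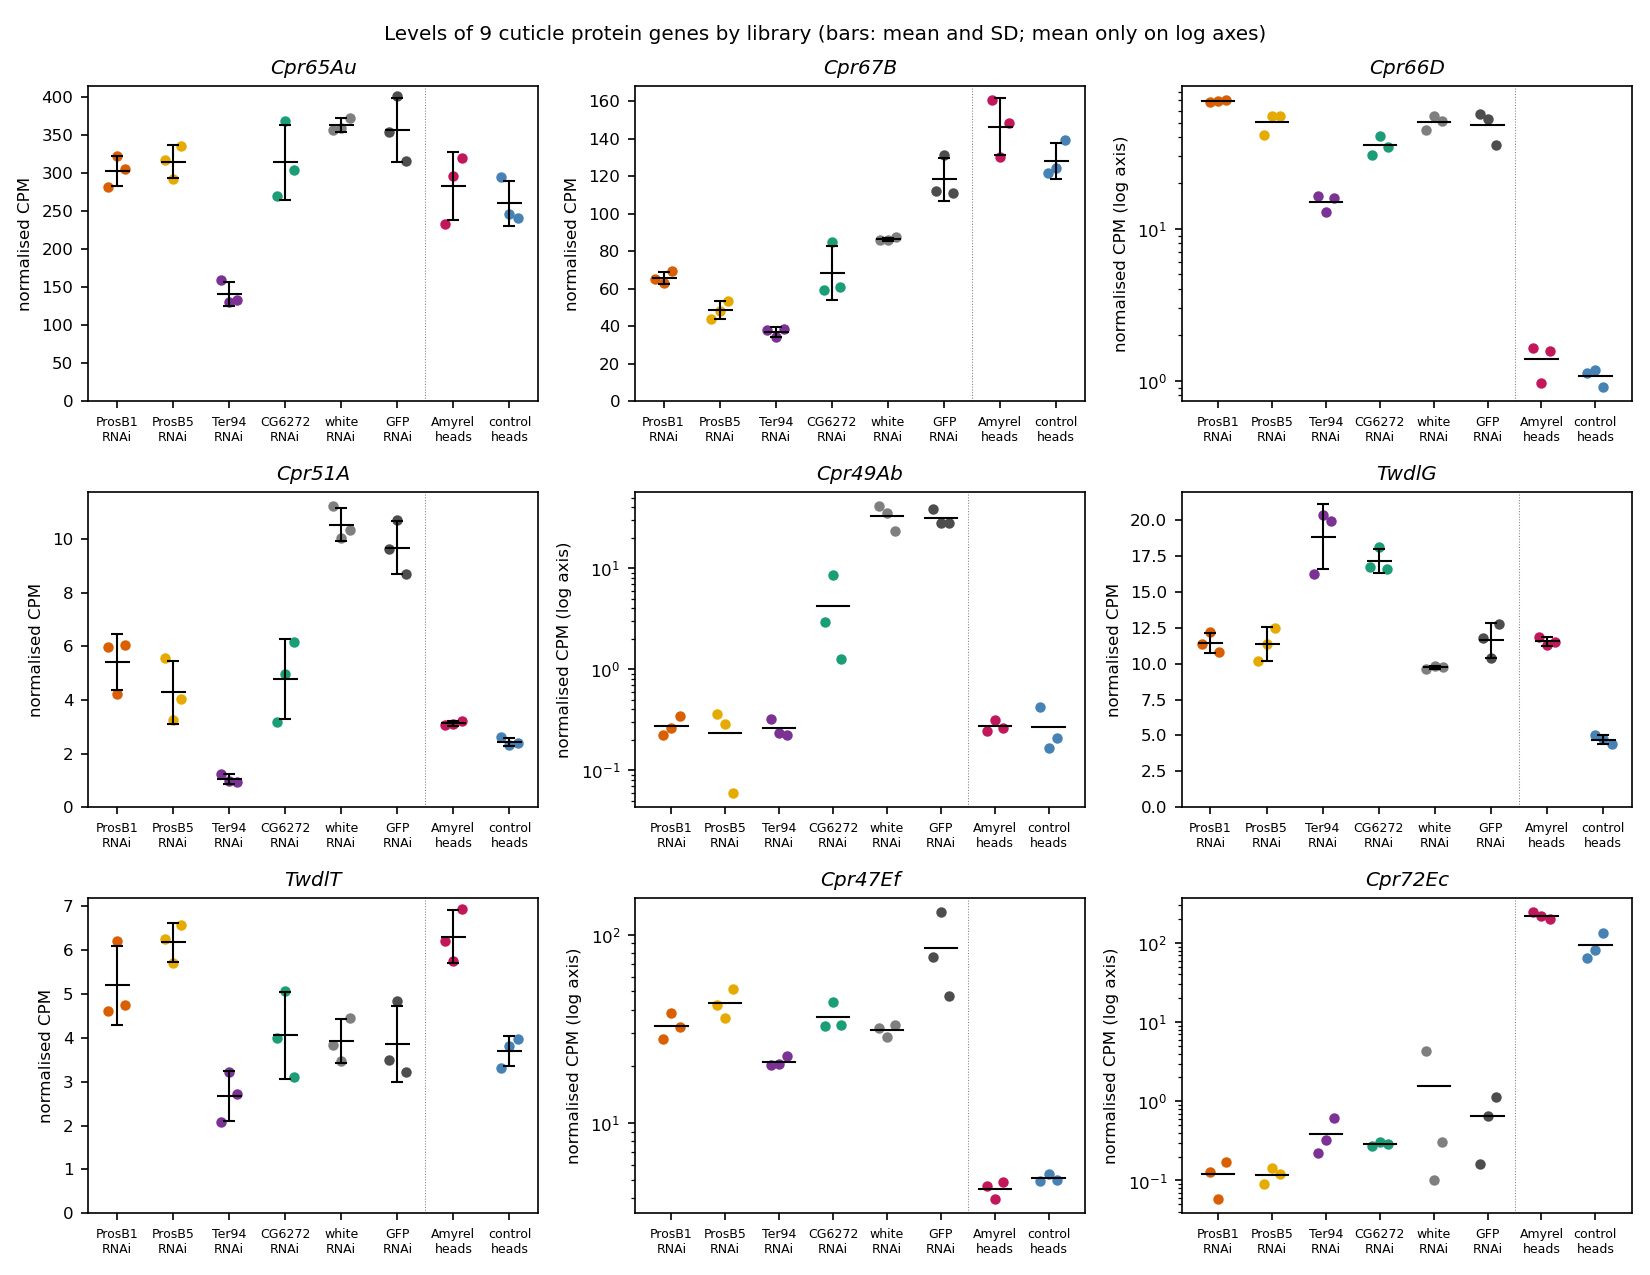
Normalised CPM of 9 cuticle protein genes in each library (points), with group means (black lines) and SD on the linear axes; Cpr66D, Cpr49Ab, Cpr47Ef and Cpr72Ec are on log axes. Cpr65Au and Cpr66D are lowest of the thorax groups with Ter94 RNAi, TwdlG is highest with Ter94 and CG6272 RNAi, and TwdlG, TwdlT and Cpr72Ec are higher in Amyrel than in control heads.

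In heads, muscle expression of Amyrel went with higher levels of some members. Of 41 tested, 4 rose and 1 fell against control heads, where 0.791% of all 10748 genes rose and 0.716% fell, 1.51% in all. Ccp84Ab entered only through Amyrel heads and Edg78E only through control heads, so each had to differ in that direction; of the 36 tested members that did not enter through 1 of these groups alone, 3 rose and 0 fell. With the replicate number as a block, which pairs the libraries of these groups, 3 members were called, and with single libraries left out 1 to 3. Lcp65Ag1 and TwdlD had too few reads in heads to be tested. The median log2 change was 0.11 over the members and 0.00 over all genes. Of the 41 tested members 16 had an unadjusted p under 0.05, where 14.1% of all genes tested did. The members summed to 927 ± 38.9 CPM in Amyrel heads and 741 ± 32.1 CPM in control heads (n = 3 each), and every Amyrel library (887 to 964 CPM) was above every control library (704 to 763 CPM). Most of that difference lay in 1 gene, Cpr72Ec, at 222 ± 20.7 CPM in Amyrel heads and 93.2 ± 35.2 CPM in control heads. Without Cpr72Ec the sums of the groups overlap.

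TwdlG stood at 11.9, 11.3 and 11.5 CPM in Amyrel heads and 5.02, 4.72 and 4.41 CPM in control heads. The groups did not overlap, and the log2 change was 1.30 ± 0.07 (SE, edgeR adjusted p = 0.000332). TwdlT stood at 6.21, 5.76 and 6.95 CPM in Amyrel heads and 3.31, 3.82 and 3.97 CPM in control heads, without overlap, a log2 change of 0.78 ± 0.10 (SE, edgeR adjusted p = 0.0168). Without control replicate 2 or Amyrel replicate 2 the TwdlT change was 0.81 or 0.84 (edgeR adjusted p = 0.0845 and 0.0629). Because TwdlT overlaps RYa-R on the same strand, its head reads may in part be those of RYa-R.

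Cpr72Ec stood at 244, 218 and 203 CPM in Amyrel heads and 65.0, 81.9 and 133 CPM in control heads. The lowest Amyrel head was above the highest control head, and the log2 change was 1.27 ± 0.23 (SE, edgeR adjusted p = 0.0472). The call was lost with the replicate number as a block (1.32, edgeR adjusted p = 0.0817) and without any library but control replicate 3 (1.07 to 1.34, edgeR adjusted p up to 0.213). Crys and retinin, the lens genes outside the symbol rule, summed to 296 to 321 CPM in Amyrel heads and 335 to 388 CPM in control heads. Crys fell to 1.14 CPM in Amyrel heads, against 2.83 CPM in control heads (log2 change -1.29, edgeR adjusted p = 0.0168). Markers of trachea and epidermis summed to 554 to 574 CPM in Amyrel heads and 532 to 571 CPM in control heads.

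Of the members that entered through 1 head group alone, Edg78E and Ccp84Ab are given as values with no test. The others, Cpr92F, Lcp65Ac and TwdlW, were not called. Edg78E was at 0.265, 0.250 and 0.249 CPM in Amyrel heads and 0.531, 0.528 and 0.568 CPM in control heads, without overlap. Ccp84Ab had 49, 17 and 23 reads in Amyrel heads and 1, 0 and 1 reads in control heads, with the highest value in Amyrel replicate 1.

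Pcp, a pupal cuticle gene that lies within Gart and whose values were singled out after they were seen, was at 2.08, 1.05 and 0.839 CPM in Amyrel heads and 0.459, 0.458 and 0.568 CPM in control heads. The groups did not overlap, yet the change of 1.42 on the log2 scale was not called (edgeR adjusted p = 0.123). Cpr76Bc, at 20.5, 47.7 and 39.8 CPM in Amyrel heads and 40.0, 26.4 and 18.2 CPM in control heads, overlapped and was not called (0.36, edgeR adjusted p = 0.713). Among the other genes of the cuticle in heads, ple rose to 95.4 CPM in Amyrel heads, against 80.5 CPM in control heads (0.26), and e, which encodes an enzyme of cuticle tanning, to 57.7 CPM against 47.5 CPM (0.30). No gene of chitin synthesis, no chitinase or growth factor and no regulator of the lists was called.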

How the data were processed

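Per the labels, polyadenylated RNA was sequenced from stranded libraries, and the authors deposited raw counts per gene for each library; STAR and the BDGP5 build are named in the submitters' processing notes, and the strand setting of the counting is not given in the sources used here. Rows that name no gene (19.4 to 31.2% of reads) were left out. Counts were scaled by TMM factors (0.909 to 1.11) to give CPM, and tested with edgeR 4.0.16 in R 4.3.3 (filterByExpr with a minimum count of 10, quasi-likelihood test, Benjamini-Hochberg adjustment over all genes tested, threshold 0.05). The ProsB1, ProsB5, Ter94, white and GFP libraries shared a fit of 15 libraries; CG6272, heads and the tissue comparison had their own. Where groups were pooled as a reference, the log2 change is against the average of their group means on the log scale. It can differ from the ratio of the mean CPM printed beside it where the pooled groups differ. With 3 libraries per group, p-values measure the spread between these samples, which may be technical. Exon lengths, overlaps and neighbours came from a BDGP6 annotation, a later build, so no coordinates are given.

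The members and lists were chosen with earlier results of these data known. Members named were, per comparison, up to 6 of each direction by adjusted p and the 6 with the highest mean CPM in thoraces and in heads, plus up to 3 genes per list; others named were chosen after their values were seen. The same fits were tested on simulated data. Alternatives were DESeq2 1.42.0, no count filter, other controls, single libraries left out and a replicate block. Same-numbered libraries deviated together (correlations over 0.1 in every pair) between Amyrel and control heads (0.155 to 0.239) and between ProsB5 and ProsB1 RNAi (0.147 to 0.463), which pairs them there. Against the pooled controls, every GFP pair was over 0.1 for ProsB1 (0.128 to 0.434) and ProsB5 (0.532 to 0.764) and not every white pair (lowest 0.0555 and -0.455), so these were left unpaired.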

Additional observations from a re-analysis of the deposited data

Results flagged for a closer look

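Of the 30 named members checked in the 6 control thoraces, 2 had a library far from the others. Cpr72Ec was at 4.33 CPM in white replicate 1, where the other controls held 0.102 to 1.14 CPM; this library also had the highest ninaE level of the thoraces, 406 CPM, and its part was not tested. TwdlD was at 0.462 CPM in GFP replicate 3, where the others held 0.743 to 0.821 CPM. Chance flags about 1 in 20 such groups.

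Members whose response differed between knockdowns by a direct test are given as log2 changes with edgeR adjusted p. Up to 6 of each direction by adjusted p are listed. Between Ter94 RNAi and the proteasome knockdowns 4 members were called higher and 19 lower, so not all of the lower ones are listed. Cpr67B differed by -0.44 between ProsB5 and ProsB1 RNAi (edgeR adjusted p = 0.00685). Between Ter94 RNAi and the 2 proteasome knockdowns, TwdlG differed by 0.72 (edgeR adjusted p = 1.43e-05), Cpr76Bc by 1.28 (9.65e-05), Cpr64Ad by 1.51 (0.000616) and Cpr50Ca by 2.15 (0.0143). Lower in Ter94 RNAi were Cpr65Au by -1.14 (edgeR adjusted p = 3.51e-07), Cpr66D by -1.98 (4.98e-07), Cpr51A by -2.20 (1.26e-06), Cpr100A by -1.17 (1.56e-06), Cpr76Bd by -0.73 (2.98e-06) and Lcp65Ag2 by -1.59 (5.28e-06). The Cpr50Ca call rests on Ter94 replicates 2 and 3, at 1.59 and 1.66 CPM against 0.0644 CPM in replicate 1, and was lost without replicate 2 (1.81, edgeR adjusted p = 0.0687) or replicate 3 (1.76, edgeR adjusted p = 0.0735). Cpr50Ca and Cpr64Ad each overlap another gene on their strand, so their own reads are uncertain.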

How the results depend on the processing

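Of 75 changes of single genes, 39 kept their call in every alternative run and 36 lost it in at least 1; 1 turned its direction, Cpr62Bc with CG6272 RNAi, at 0.15 with white RNAi alone as control. Cpr49Ab, Cpr51A and Cpr67B kept their calls in all alternatives for ProsB1, ProsB5 and Ter94 RNAi, and TwdlG for Ter94 RNAi and Amyrel heads. Without the libraries high in Acp36DE, members called numbered 5 with ProsB5 RNAi (0 higher, 5 lower), 0 with CG6272 RNAi, 0 between ProsB5 and ProsB1 and 1 between white and GFP RNAi; those fits hold fewer libraries. Without the controls high in ninaE they numbered 1 with CG6272 RNAi and 4 between white and GFP RNAi. Between ProsB5 and ProsB1 RNAi, 2 were called with DESeq2 and 2 with those groups alone in the fit. With the replicate block, 3 were called in Amyrel heads; in the other comparisons the block moved no count by over 1.5 times (10 with CG6272 RNAi, 10 between white and GFP RNAi, 12 with ProsB1 and 12 with ProsB5 RNAi). For ProsB5 against ProsB1 RNAi, the pairing left the Cpr67B change at -0.44 (edgeR adjusted p = 0.0112). Leaving out single libraries gave 8 to 14 members with ProsB1, 10 to 13 with ProsB5, 21 to 25 with Ter94 and 6 to 10 with CG6272 RNAi, 1 to 1 between ProsB5 and ProsB1, 21 to 23 between Ter94 and both, 8 to 10 between white and GFP, 1 to 3 in Amyrel heads and 33 to 36 between tissues. The cause of these changes was not tested. Members under about 1 CPM rest on few reads.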
